A study of Mus musculus with 16 samples.

Results

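The transcripts that remained 5 h after transcription was stopped with the transcription inhibitor actinomycin D were compared between Nat10-deficient and wild type (WT) mouse blood cells. The comparison used the 2 libraries labelled Nat10-/- and the 2 WT libraries of the 5 h time, which are 4 of the 16 libraries of the experiment, and covered all 25081 genes that passed a filter on low counts. Bone marrow depleted of lineage-positive cells was, per the labels, cultured with stem cell factor and thrombopoietin, treated with 5 µM actinomycin D, and sorted for long-term haematopoietic stem cells (HSCs) before polyadenylated RNA was sequenced. The same dose was given to all groups, and the 0 h libraries of both genotypes, used below as the starting point, were sorted at the start of the treatment. The sample titles name 32D, a myeloid cell line, while the other labels name bone marrow HSCs. The strain, the age of the animals, how Nat10 was deleted and in which cells are not given in the sources used here.

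NAT10 is an acetyltransferase that places N4-acetylcytidine (ac4C) on RNA, on ribosomal and transfer RNA and, by published reports, also on messenger RNA, where the mark has been linked to stability. With transcription blocked, an mRNA that is degraded quickly falls out of the pool, while a stable one takes a growing share of what is left. Antibody mRNAs of plasma cells, the antibody-secreting cells of the B lineage, are among the long-lived kind.

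Total counts at 5 h were 14502167 and 15401361 in the libraries labelled Nat10-/-, against 14000072 and 11288586 in the WT libraries. The labels call the 2 libraries of a group biological replicates, yet the headers of both name the same alignment. Their counts differed by a chi-square per degree of freedom of 1.81 within the pair labelled Nat10-/- and 1.55 within the WT pair, against 912 between a library of each genotype. All adjusted p-values and standard errors below therefore reflect how far 2 files of 1 group lie apart, which may be technical. With the 2 files of each group summed and a straight line fitted over the hours of each genotype, edgeR's quasi-likelihood test called 0 genes higher and 0 lower at an adjusted p under 0.05, with 3953 genes at an unadjusted p under 0.05. That fit leaves 4 residual degrees of freedom and takes any departure from a straight line as error. Its counts therefore cannot show what separate samples would give.

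Immunoglobulin genes, which encode antibody chains (Jchain is counted with them here), took 4.34% and 4.31% of gene counts in the libraries labelled Nat10-/-, against 66.7% and 66.4% in the WT libraries. The exact 95% binomial intervals, which cover counting error only, spanned 4.33% to 4.35% and 4.30% to 4.32% in the libraries labelled Nat10-/-, and 66.6% to 66.7% and 66.3% to 66.4% in the WT libraries. At 0 h the order was the opposite, at 7.001% and 6.965% in the libraries labelled Nat10-/- against 3.94% and 3.91% in the WT libraries. Because these genes fill so much of the WT libraries, levels below are normalised CPM, that is counts scaled to a common total of the counts of all other genes, with library factors from the trimmed mean of M-values (TMM) method.

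ERCC spike-ins, synthetic RNAs added in the same amount to each RNA sample per the labels, put the difference on another footing. Each ERCC count stood beside 33.5 and 34.9 immunoglobulin counts in the libraries labelled Nat10-/-, against 25.7 and 25.7 in the WT libraries, a ratio of 1.33. Each ERCC count stood beside 738 and 774 counts of other genes in the libraries labelled Nat10-/-, against 12.87 and 13.05 in the WT libraries, a ratio of 58.4. Per spike-in, the genotypes were thus closer in antibody mRNA than in all other mRNA together. At 0 h the ratios were 146 for immunoglobulin counts and 79.7 for other counts. Within WT, immunoglobulin counts per ERCC count averaged 2.13 at 0 h and 25.7 at 5 h, although transcription was blocked in between, and in the libraries labelled Nat10-/- they averaged 312 at 0 h and 34.2 at 5 h. In such bulk samples, fewer cells of a type and less RNA per cell cannot be told apart.

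**Figure D1:**
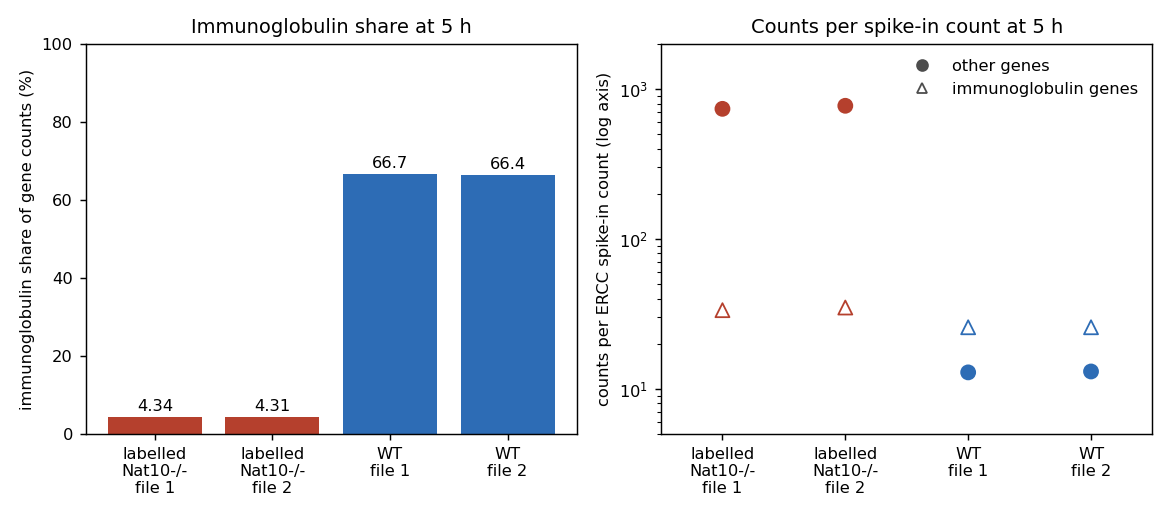
Immunoglobulin share of gene counts in percent (left, bars) and counts per ERCC spike-in count on a log axis (right, filled circles for other genes, open triangles for immunoglobulin genes) in each library at 5 h, with libraries labelled Nat10-/- in red and WT libraries in blue. The share is 4.34% and 4.31% in the libraries labelled Nat10-/- and 66.7% and 66.4% in WT, while per spike-in count the triangles lie close together (33.5 and 34.9 against 25.7 and 25.7) and the circles far apart (738 and 774 against 12.87 and 13.05).

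Across all genes tested relative to each other, 8186 (32.6%) were higher and 7802 (31.1%) lower in the libraries labelled Nat10-/- than in WT at an adjusted p under 0.05. The values of the 2 genotypes did not overlap for 19540 genes (77.9%). The median log2 fold change of all genes was 0.03, and of protein-coding genes 0.14. The scale matters for the weaker differences and, per spike-in, for strong ones too. Scaled to all gene counts, immunoglobulin genes included, 13929 genes (55.5%) were higher and 3733 (14.9%) lower, the median of all genes moved to 1.38, and of the 7802 lower genes 3733 stayed lower, 2513 were not called and 1556 were higher. Scaled to the counts of genes other than immunoglobulin genes without TMM factors, 7397 were higher and 8458 lower. Per spike-in, 21114 genes (84.2%) were higher and 174 (0.694%) lower, and the median of all genes was 5.63. Gene lists described below as lower then had medians above 0, so such calls are relative to other mRNA. The medians per spike-in were 1.98 for T and natural killer cell, 2.25 for B lymphoid, 3.83 for endoplasmic reticulum chaperone, 4.22 for immediate-early and 4.46 for HSC genes. Of the 245 immunoglobulin genes tested, 126 were higher and 58 lower per spike-in. The 174 became 93 without file 1 of the group labelled Nat10-/- and 99 without its file 2.

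Which genotype held more kinds of mRNA depended on the minimum count. Thinned to a common 3702177 counts of non-immunoglobulin genes, the libraries labelled Nat10-/- held 23708 and 23731 genes with at least 1 count, against 21088 and 20711 in the WT libraries. The order turned for genes with at least 5 counts, at 13207 and 13185 in the libraries labelled Nat10-/- and 15660 and 15606 in WT. Both orders were already there at 0 h. With at least 1 count, the libraries labelled Nat10-/- then held 23248 and 23157 genes, against 20727 and 20598 in WT. With at least 5 counts they held 13704 and 13695, against 14371 and 14351 in WT.

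Nat10 (ENSMUSG00000027185, chromosome 2, 103551601 to 103591615, GRCm39) was present and higher in the libraries that carry the deletion label. Its level was 189.5 and 209.7 normalised CPM in the libraries labelled Nat10-/-, against 56.0 and 51.3 in the WT libraries, a log2 fold change of 1.89 ± 0.073 (SE). At 0 h the difference was 0.33 ± 0.049, and the 5 h difference exceeded it by 1.56 ± 0.091 (adjusted p = 1.92e-43, edgeR quasi-likelihood interaction test). The counts cover the whole gene, and which exons the deletion removes is not given, so they do not check the deletion itself. Since the level goes against the label, the groups are named by their labels throughout.

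Antibody and plasma cell transcripts had the lowest medians of all lists in the libraries labelled Nat10-/-. Of 245 immunoglobulin genes tested, 230 were lower and 4 higher, beside 31.1% and 32.6% of all genes tested. Their median log2 fold change was -5.31, and the 8 heavy-chain constant genes were all lower, with a median of -6.06. Reads of variable segments can be split among near-identical copies, so single segments are uncertain. Igkc, the kappa light-chain constant gene (chromosome 6, 70703419 to 70703950, GRCm39), alone made up 2.29% and 2.28% of gene counts in the libraries labelled Nat10-/-, against 33.3% and 33.0% in WT. Igha, the constant region of IgA, made up 0.794% and 0.780% against 9.43% and 9.33%. Ighm, the constant region of IgM, made up 0.203% and 0.207% in the libraries labelled Nat10-/-, against 5.86% and 5.80% in WT. Jchain, which joins IgA and IgM into polymers, made up 0.421% and 0.421% against 6.97% and 7.13%. In each case the libraries of a genotype agreed closely and the genotypes were far apart.

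All 28 plasma cell markers tested were lower in the libraries labelled Nat10-/-, beside 31.1% of all genes tested. Their median log2 fold change was -4.33, while at 0 h it was 0.49. This order is relative to other mRNA. Per spike-in the median of the list was 1.38 and 1 member was lower, beside a median of 5.63 and 0.694% lower among all genes. Scaled to all gene counts, 25 were lower and 2 higher, beside 14.9% and 55.5% of all genes. Their summed level, Jchain included, was 6413 and 6449 normalised CPM in the libraries labelled Nat10-/-, against 250700 and 253500 in WT. Xbp1, the transcription factor that builds the secretory apparatus, stood at 90.9 and 95.1 normalised CPM in the libraries labelled Nat10-/-, against 2523 and 2575 in WT (log2 -4.78 ± 0.031). Sdc1, the gene of the plasma cell surface marker CD138 (chromosome 12, 8821323 to 8843715), stood at 40.6 and 43.4 against 1860 and 1830 (log2 -5.46 ± 0.040). The factors that fix plasma cell identity were near the limit of detection in the libraries labelled Nat10-/-. Prdm1, which encodes Blimp-1, had 1.07 and 0.592 normalised CPM there, against 45.2 and 44.1 in WT. Irf4, the other regulator of that fate, had 1.16 and 1.35 against 61.2 and 59.2. The coactivator gene Pou2af1 had 5.18 and 8.71 in the libraries labelled Nat10-/-, against 769.9 and 691 in WT (log2 -6.71 ± 0.069). The protease inhibitor gene Slpi (log2 -5.31), the surface receptor gene Slamf7 (log2 -5.82) and the disulphide isomerase gene Txndc5 (log2 -4.16) were lower to a like extent.

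At 0 h several of these transcripts had been higher in the libraries labelled Nat10-/-. Sdc1 stood at 152 and 149 normalised CPM there, against 74.5 and 82.3 in WT, and its difference at 5 h minus that at 0 h was -6.4 ± 0.059 on the log2 scale. Jchain stood at 6085 and 6114 in the libraries labelled Nat10-/-, against 2971 and 2955 in WT at 0 h, and its difference at 5 h minus that at 0 h was -6.47 ± 0.019. Both interaction tests passed the threshold, and the plasma cell list as a whole moved the same way, with 28 of 28 members below their 0 h difference, against 27.8% of all genes. In WT both genes stood higher at 5 h than at 0 h relative to other genes, and in the libraries labelled Nat10-/- both stood lower.

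**Figure D2:**
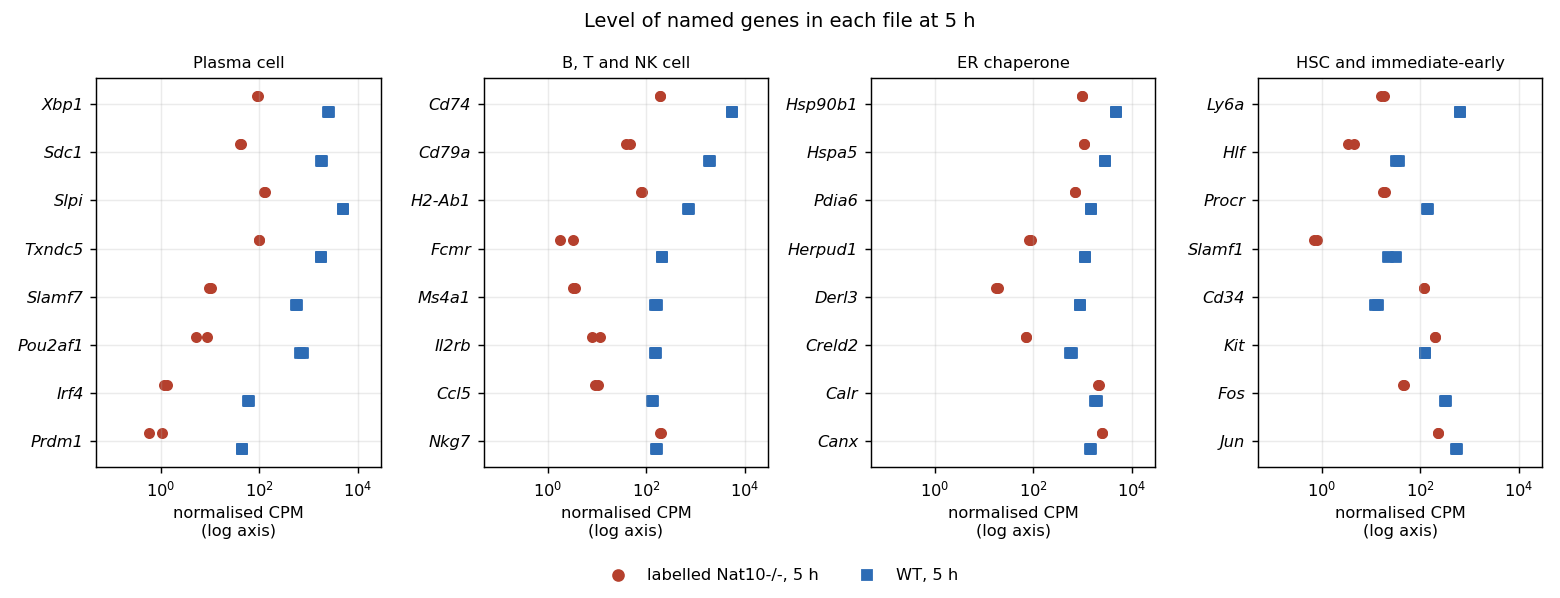
Normalised CPM on a log axis of plasma cell, lymphoid, endoplasmic reticulum (ER) chaperone, HSC and immediate-early genes in each file at 5 h, red circles for files labelled Nat10-/- (upper of each pair) and blue squares for WT. Plasma cell genes such as Xbp1 (90.9 and 95.1 against 2523 and 2575) are far lower in the files labelled Nat10-/-, whereas Cd34, Kit, Nkg7, Calr and Canx lie higher there.

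Genes of the ER folding machinery, which antibody secretion uses heavily, were lower in the same libraries. Of 24 ER chaperone and quality-control genes, 21 were lower and 2 higher, with a median log2 fold change of -1.89, against 0.61 at 0 h and beside 31.1% lower among all genes. On the scale of all gene counts, 14 were lower and 9 higher, beside 14.9% and 55.5% of all genes, with a median of -0.53. This list moved together with the plasma cell markers, whose part in it was not tested. Hsp90b1, the ER member of the HSP90 family, stood at 968 and 995 normalised CPM in the libraries labelled Nat10-/-, against 4812 and 4853 in WT (log2 -2.30 ± 0.022). Hspa5, the gene of the master chaperone BiP, stood at 1068 and 1077 against 2794 and 2853 (log2 -1.40 ± 0.022). Derl3, a component of ER-associated degradation, showed the widest gap of the list, at 17.7 and 18.9 in the libraries labelled Nat10-/- against 893.5 and 874.1 in WT (log2 -5.60 ± 0.057). Herpud1, of the same degradation pathway, had a log2 fold change of -3.70, and Creld2, an ER stress-induced folding factor, one of -3.04. The 2 lectin chaperones went the other way. Canx, which encodes calnexin, stood at 2481 and 2473 in the libraries labelled Nat10-/-, against 1416 and 1471 in WT, and Calr, which encodes calreticulin, at 2066 and 2115 against 1826 and 1925. Pdia3, the isomerase that works with both, was lower by a log2 fold change of only -0.09, and this sign turned under several alternatives.

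Many ER chaperone genes share a promoter motif, the ER stress element, which ATF6 and XBP1 are known to act through, so the promoters of this list were read from RefSeq (GRCm38.p6). The whole promoter sequence was searched, and the 250 bases before the start site are printed. The motif was searched as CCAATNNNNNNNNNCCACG on both strands, and the copies marked do not overlap. Of 24 list genes, 21 had a promoter in the table and 9 of these held the motif, or 42.9%, all within those 250 bases. Over the whole sequence searched, 39 of all 32851 promoters, or 0.119%, held it. The motif was chosen because such genes are known to share it, so this contrast does not bear on the 5 h values. The promoters of 5 genes are shown because they include genes lower, much lower and higher at 5 h. Capitals mark the motif, which lies on the reverse strand in Derl3 and Creld2, and on each strand once in Hsp90b1. Hspa5 is at chr2:34771840-34772089 (plus strand), Hsp90b1 at chr10:86705445-86705694 (minus strand), Derl3 at chr10:75893148-75893397 (plus strand), Creld2 at chr15:88819396-88819645 (plus strand) and Canx at chr11:50325674-50325923 (minus strand).
Hspa5: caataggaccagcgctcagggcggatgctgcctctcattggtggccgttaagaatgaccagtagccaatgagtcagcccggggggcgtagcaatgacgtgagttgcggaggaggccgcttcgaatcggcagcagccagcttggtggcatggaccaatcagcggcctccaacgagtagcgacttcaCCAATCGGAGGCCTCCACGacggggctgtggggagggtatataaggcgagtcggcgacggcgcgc
Hsp90b1: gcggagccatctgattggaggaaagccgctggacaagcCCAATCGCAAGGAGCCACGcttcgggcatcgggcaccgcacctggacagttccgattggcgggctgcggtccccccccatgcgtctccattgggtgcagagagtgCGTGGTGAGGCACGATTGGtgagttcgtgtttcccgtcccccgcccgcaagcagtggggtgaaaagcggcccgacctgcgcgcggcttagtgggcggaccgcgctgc
Derl3: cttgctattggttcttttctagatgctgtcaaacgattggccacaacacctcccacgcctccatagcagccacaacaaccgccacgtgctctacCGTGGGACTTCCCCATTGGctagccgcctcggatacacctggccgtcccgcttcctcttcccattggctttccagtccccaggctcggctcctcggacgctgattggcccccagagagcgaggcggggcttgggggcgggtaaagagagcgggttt
Creld2: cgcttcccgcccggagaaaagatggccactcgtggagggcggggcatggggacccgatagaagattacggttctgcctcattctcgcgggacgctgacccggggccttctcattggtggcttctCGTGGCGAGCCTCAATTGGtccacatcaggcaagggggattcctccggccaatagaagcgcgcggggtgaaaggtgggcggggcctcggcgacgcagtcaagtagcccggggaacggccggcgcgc
Canx: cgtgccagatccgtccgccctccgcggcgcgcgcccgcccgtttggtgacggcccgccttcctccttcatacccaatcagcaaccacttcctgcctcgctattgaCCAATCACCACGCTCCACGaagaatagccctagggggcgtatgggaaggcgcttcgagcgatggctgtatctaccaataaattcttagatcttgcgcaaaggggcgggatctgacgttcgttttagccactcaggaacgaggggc

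Among the 9 genes with the motif, 7 were lower and 2 (Calr and Canx) higher at 5 h, with log2 fold changes between -5.60 and 0.78 and a median of -2.30. Among the 12 genes without these letters in the window, 11 were lower and 0 higher, with a median of -2.01. The motif thus occurred in genes that differed in both directions. The wider secretory pathway, such as translocon and glycosylation genes, held 28 lower and 5 higher of 36 genes, with a median of -0.59. Among all genes tested, 31.1% were lower and 32.6% higher. The sign of the secretory median turned when scaled to all gene counts, with 8 lower and 25 higher and a median of 0.78. On that scale 14.9% of all genes were lower and 55.5% higher, with a median of 1.38. Ddost, a subunit of the oligosaccharyltransferase, stood at 637 and 617 normalised CPM in the libraries labelled Nat10-/-, against 921 and 917 in WT. Tram2, a translocon-associated gene, stood at 3.22 and 2.62 against 35.9 and 34.4. The translocon-associated subunit gene Ssr1 was higher, at 1657 and 1654 in the libraries labelled Nat10-/- against 1146 and 1204 in WT.

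Other lymphoid markers were also lower in the libraries labelled Nat10-/-. Of 25 B lymphoid markers, 19 were lower and 0 higher, beside 31.1% and 32.6% of all genes tested. The markers had a median log2 fold change of -3.46, against 0.65 at 0 h. Their summed level was 594 and 607 normalised CPM in the libraries labelled Nat10-/- against 10780 and 10750 in WT. Cd74, the invariant chain of MHC class II, stood at 190.0 and 190.2 in the libraries labelled Nat10-/-, against 5572 and 5563 in WT. Cd79a, a signalling chain of the B cell receptor, stood at 38.3 and 46.5 against 1910 and 1978 (log2 -5.51 ± 0.042). Ms4a1, the gene of CD20, stood at 3.22 and 3.63 in the libraries labelled Nat10-/-, against 164 and 149 in WT. The class II gene H2-Ab1 had a log2 fold change of -3.17, Fcmr, the IgM Fc receptor, one of -6.36, and Vpreb3, of the pre-B cell receptor complex, one of -7.03. The Vpreb3 value rests on 4 and 6 raw counts in the libraries labelled Nat10-/-, so its size is uncertain. At 0 h Cd79a and Fcmr had been higher in the libraries labelled Nat10-/-, by log2 0.917 ± 0.074 and 2.002 ± 0.23, and both interaction tests passed the threshold.

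Of 26 T and natural killer (NK) cell markers, 21 were lower and 2 higher, beside 31.1% and 32.6% of all genes tested. The markers had a median log2 fold change of -3.62, against 1.25 at 0 h. Their summed level was small, 290.3 and 277 normalised CPM in the libraries labelled Nat10-/- against 789.5 and 764 in WT, and Cd4 was at 0 in all 4 libraries. Cd2, a T and NK cell adhesion receptor, had 0 counts in both libraries labelled Nat10-/-, against 55.5 and 42.6 normalised CPM in WT, which makes it at least 382-fold lower with the group labelled Nat10-/- held at 3 counts. Cd3d, a chain of the T cell receptor complex, likewise had 0 counts there, against 20.9 and 16.6 in WT. Il2rb, a chain of the interleukin-2 and interleukin-15 receptors, stood at 11.3 and 8.11 in the libraries labelled Nat10-/-, against 153 and 162 in WT, whereas at 0 h it stood at 28.0 and 31.3 against 4.44 and 5.90. The chemokine gene Ccl5 had a log2 fold change of -3.76. Nkg7, a granule gene of cytotoxic cells, went the other way, at 196 and 188 in the libraries labelled Nat10-/- against 165 and 156 in WT. Of 19 dendritic cell markers, 12 were lower and 1 higher, among them Ly6d (log2 -5.51) and Pld4 (log2 -4.47), both also found in B lineage or plasmacytoid cells.

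Immediate-early transcripts, which are induced within minutes of a stimulus and whose AU-rich tails mark them for fast decay, were lower in the libraries labelled Nat10-/-. Of 42 such genes, 36 were lower and 0 higher (median log2 -1.48), against 31.1% of all genes lower. Fos, a subunit of the AP-1 transcription factor (chromosome 12, 85520664 to 85524047), stood at 44.2 and 45.5 normalised CPM in the libraries labelled Nat10-/-, against 317 and 325 in WT (log2 -2.84 ± 0.047). At 0 h it had stood at 1630 and 1649 in the libraries labelled Nat10-/-, against 4693 and 4635 in WT (log2 -1.51 ± 0.021), so a difference was there before the block and was wider by log2 1.33 at 5 h. Its partner Jun and its relative Fosb changed order. Jun stood at 223 and 229 in the libraries labelled Nat10-/-, against 525 and 553 in WT at 5 h (log2 -1.25 ± 0.034), while at 0 h it was higher there by log2 0.23 ± 0.022. Fosb stood at 86.7 and 93.0 against 473 and 459.7 at 5 h (log2 -2.38 ± 0.040), while at 0 h it was higher by 0.44 ± 0.022. Nr4a1, a nuclear receptor of the same class of fast-responding genes, had a log2 fold change of -6.30, with 3 raw counts in each library labelled Nat10-/-. Nfkbia, the inhibitor of NF-kappaB, had one of -1.70 ± 0.044. Over the list, 29 of 42 genes lay below and 3 above their 0 h difference, beside 27.8% and 26% of all genes. At 0 h 26 of the list were already lower and 10 higher (median log2 -0.41), beside 24.4% and 35.8% of all genes. Scaled to all gene counts, 18 of the 42 were lower and 12 higher, beside 14.9% and 55.5% of all genes. Jun then had a log2 fold change of 0.11.

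Genes of HSC identity were lower on balance in the libraries labelled Nat10-/-, and most had been so from the start. Of 40 genes, 26 were lower and 8 higher at 5 h, beside 31.1% and 32.6% of all genes tested. At 0 h 35 were lower and 4 higher, beside 24.4% and 35.8% of all genes tested. The median log2 fold change was -1.25 at 5 h and -1.28 at 0 h. Procr, the gene of the HSC marker EPCR, stood at 19.3 and 17.6 normalised CPM in the libraries labelled Nat10-/-, against 139 and 139 in WT (log2 -2.92 ± 0.086, and -1.89 ± 0.055 at 0 h). Slamf1, the gene of CD150, was low in the libraries labelled Nat10-/-, at 0.804 and 0.676 against 22.1 and 31.7 in WT. The transcription factor gene Hlf stood at 4.47 and 3.38 in the libraries labelled Nat10-/-, against 31.2 and 36.2 in WT. Ly6a, the gene of Sca-1 (chromosome 15, 74866726 to 74869880), differed at 5 h far more than at 0 h. It stood at 15.9 and 17.8 in the libraries labelled Nat10-/-, against 636 and 647 in WT at 5 h, and at 53.01 and 49.39 against 42.6 and 40.8 at 0 h. Sca-1 is also found on lymphoid cells, whose markers moved the same way, and their part in its level was not tested. Txnip, a redox regulator enriched in HSCs, had a log2 fold change of -1.68 and the sulfotransferase gene Sult1a1 one of -5.49. The Sult1a1 value rests on 5 and 4 raw counts in the libraries labelled Nat10-/-, so its size is uncertain.

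The higher members of that list included Cd34, which in the mouse marks progenitors and short-term HSCs rather than long-term HSCs, and Kit, the stem cell factor receptor. Cd34 stood at 118 and 118 normalised CPM in the libraries labelled Nat10-/-, against 14 and 11.8 in WT at 5 h (log2 3.18 ± 0.10), and at 741.5 and 742 against 256 and 244 at 0 h (log2 1.57 ± 0.031). Kit stood at 193 and 199 in the libraries labelled Nat10-/-, against 126 and 121 in WT (log2 0.67 ± 0.052), while at 0 h it was lower there by a log2 fold change of -0.33 ± 0.028. Scaled to all gene counts, the median of the HSC list was 0.11, beside 1.38 for all genes. On that scale 18 of its genes were higher and 15 lower, beside 55.5% and 14.9% of all genes. Procr, Slamf1, Hlf and Ly6a stayed lower.

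Of 27 p53 targets, 16 were lower and 8 higher (median log2 -1.03, against 0.0032 at 0 h), beside 31.1% lower and 32.6% higher among all genes. The sign of the median turned when scaled to all gene counts, with 7 lower and 13 higher (median 0.28). On that scale 14.9% of all genes were lower and 55.5% higher (median 1.38), so the list still lay below the median of all genes. Trp53inp1, a stress-induced cofactor of p53, stood at 6.07 and 6.34 normalised CPM in the libraries labelled Nat10-/-, against 129.7 and 140.4 in WT. The antiproliferative gene Btg2 (log2 -1.94), the death receptor gene Fas (log2 -3.26) and Pmaip1, which encodes the pro-apoptotic protein NOXA (log2 -1.64), were lower too. Bax, the pore-forming effector of apoptosis, was higher, at 264 and 274 in the libraries labelled Nat10-/- against 123 and 138 in WT, as was the cyclin gene Ccng1 (log2 0.47). Of 30 interferon response genes, 19 were lower and 8 higher (median -0.65). Scaled to all gene counts, 5 were lower and 21 higher, with a median of 0.72 that again lay below the 1.38 of all genes. B2m, the light chain of MHC class I, stood at 3294 and 3298 in the libraries labelled Nat10-/-, against 14580 and 14250 in WT, and Gbp4, an interferon-induced GTPase with close relatives in the genome, at 0.357 and 0.761 against 58.0 and 44.7. The integrated stress response was split, with 13 of 27 genes higher and 11 lower. Slc3a2, an amino acid transporter chain that is abundant in plasma cells, stood at 243 and 251 in the libraries labelled Nat10-/-, against 3405 and 3438 in WT, while Asns, the asparagine synthetase, stood at 815 and 808 against 493 and 505.

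Transcripts of growth and proliferation were higher in the libraries labelled Nat10-/-. Of 33 S phase genes, 31 were higher and 1 lower (median log2 1.09), and of 32 G2 and M phase genes, 30 were higher and 0 lower (median 1.22), against 32.6% higher among all genes and 55.6% among protein-coding genes of at least 20 normalised CPM. The second share is the closer background for these and the following lists of abundant mRNAs. Dut, which keeps uracil out of DNA, stood at 989.8 and 989.6 normalised CPM in the libraries labelled Nat10-/-, against 272 and 266 in WT (log2 1.88 ± 0.036). Lig1, the replicative DNA ligase, stood at 378 and 382 against 78.6 and 75.8. Cenpa, the centromeric histone, stood at 604 and 602 in the libraries labelled Nat10-/-, against 138 and 143 in WT. The phosphatase gene Cdc25c, which triggers mitosis, had a log2 fold change of 2.46 ± 0.23, and Hmgb2, a chromatin protein of dividing cells, one of 1.28. The maintenance DNA methyltransferase Dnmt1 was higher by 1.21. The same lists were higher at 0 h, with medians of 0.68 and 0.77. Of 37 canonical histone genes, 35 were matched through older symbols and 23 tested, with 8 higher and 8 lower. Hist1h1c, a linker histone, had a log2 fold change of -1.88.

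Ribosome biogenesis and RNA modification genes were higher, with 37 higher and 3 lower of 42 (median log2 0.89) and 20 higher and 0 lower of 24 (median 0.87). Npm1, the nucleolar chaperone nucleophosmin, stood at 1761 and 1735 normalised CPM in the libraries labelled Nat10-/-, against 601 and 573 in WT (log2 1.57 ± 0.029). Ncl, which encodes nucleolin, stood at 2912 and 2923 against 1189 and 1228. Pes1, needed for the large subunit, stood at 266 and 272 in the libraries labelled Nat10-/-, against 73.9 and 74.6 in WT, and Utp20, of the small-subunit processome, had a log2 fold change of 2.24 ± 0.13. Fbl, the rRNA methyltransferase fibrillarin, had a log2 fold change of 1.67 ± 0.071, its partner Nop58 one of 1.42 and the cytosine methyltransferase gene Nsun2 one of 0.84. Nat10, itself a nucleolar enzyme, lay within this range at 1.89.

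Cytosolic ribosomal protein genes differed less, with 45 of 62 higher and 6 lower and a median of 0.35. That median was close to the 0.33 of protein-coding genes of at least 20 normalised CPM. Of those genes 55.6% were higher and 31.5% lower, against 72.6% and 9.68% of the ribosomal protein genes. Rpl4 stood at 9197 and 9258 normalised CPM in the libraries labelled Nat10-/-, against 7131 and 7245 in WT, and Rps2 at 7404 and 7358 against 4301 and 4300. Many of these genes have processed pseudogenes that can take reads from them. Of 36 translation factors, 31 were higher and 5 lower. Eef1a1, the elongation factor gene, stood at 26850 and 26880 in the libraries labelled Nat10-/-, against 23440 and 23440 in WT (log2 0.20), and Eif3b, a scaffold subunit of initiation factor 3, had a log2 fold change of 1.91 ± 0.074.

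Mitochondrial and protein turnover genes encoded in the nucleus were higher too. Of 34 mitochondrial ribosomal protein genes 29 were higher and 1 lower, of 40 oxidative phosphorylation genes 34 and 0, of 27 fatty acid oxidation genes 25 and 1, and of 33 proteasome subunit genes 31 and 0. Their medians lay between 0.79 and 0.94. Atp5b, the catalytic subunit of ATP synthase, stood at 7079 and 7059 normalised CPM in the libraries labelled Nat10-/-, against 3481 and 3536 in WT. Uqcrc1, a core subunit of complex III, stood at 1878 and 1899 against 718 and 692. Mrps35, of the small mitochondrial subunit, had a log2 fold change of 2.48 ± 0.17 and Mrpl12, of the large one, one of 1.43. Acad9, needed for complex I assembly and related to acyl-CoA dehydrogenases, had a log2 fold change of 2.31 and the thiolase gene Acaa2 one of 1.44. Among proteasome genes the log2 fold changes ran up to 1.65 for Psmb7, a catalytic subunit, and Psmd8, of the regulatory particle, had 0.23. Of 13 mRNAs encoded by the mitochondrial genome, 6 were higher and 3 lower (46.2% and 23.1%), with a median of 0.23. Among protein-coding genes of at least 20 normalised CPM, 55.6% were higher and 31.5% lower, with a median of 0.33. At 0 h 12 of the 13 were higher and 0 lower, with a median of 0.89. One of the lower members at 5 h was mt-Co1, a subunit of cytochrome c oxidase. It stood at 8179 and 8172 in the libraries labelled Nat10-/- against 11930 and 12250 in WT.

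Splicing factors of the SR and hnRNP families held 27 higher and 2 lower of 31 genes (median 0.87), with Hnrnpk at 3870 and 3919 normalised CPM in the libraries labelled Nat10-/- against 1904 and 1928 in WT, and Hnrnpa0 at 93.7 and 91.5 against 10.3 and 9.06. Of 21 heat shock genes of the cytosol and mitochondria, 15 were higher and 6 lower. Hspd1, the mitochondrial chaperonin, stood at 3202 and 3253 in the libraries labelled Nat10-/-, against 908 and 929.9 in WT, whereas the small heat shock gene Hspb1 stood at 3.13 and 2.11 against 49.4 and 58.9. Glycolysis was split, with 12 of 24 higher and 9 lower: Ldha, the lactate dehydrogenase gene, had a log2 fold change of 1.38 and Pkm, the pyruvate kinase gene, one of -0.62. Chromatin regulators of self-renewal held 22 higher and 10 lower of 33. Among the lower was the Polycomb gene Cbx8, at 0.179 and 0 (2 and 0 raw counts) against 4.18 and 5.43. Genes of mRNA decay held 20 higher and 6 lower of 33. The shares higher in these last lists, 66.7% and 60.6%, stand beside 55.6% of protein-coding genes of at least 20 normalised CPM.

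**Figure D3:**
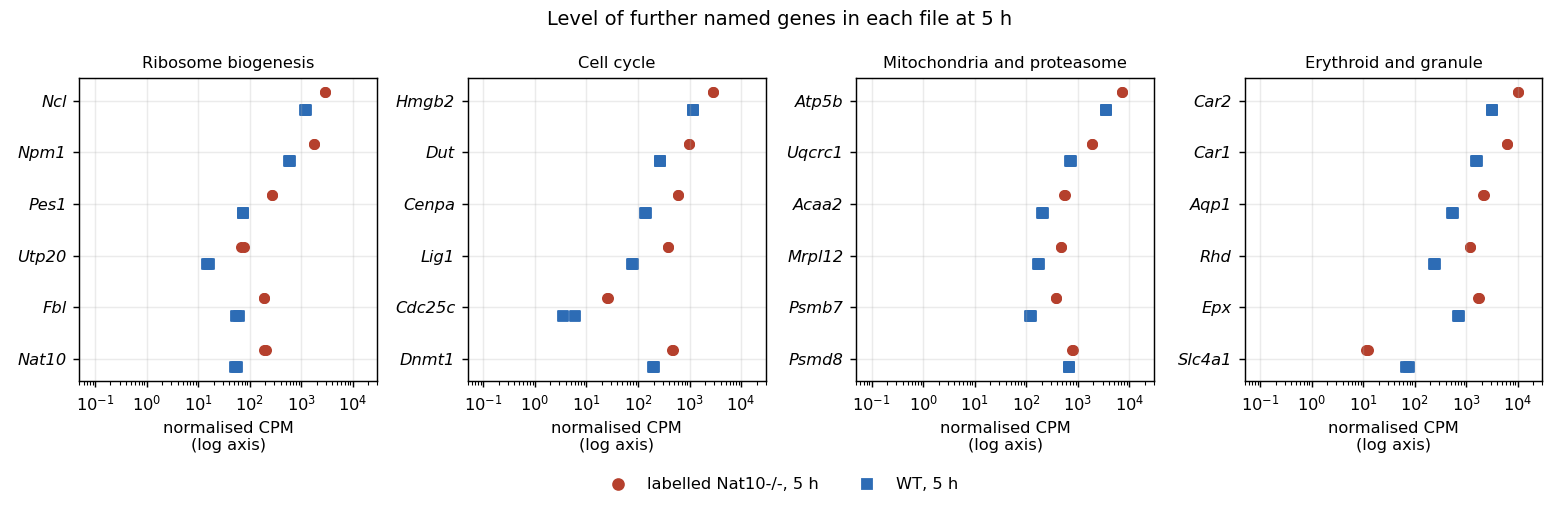
Normalised CPM on a log axis of ribosome biogenesis, cell cycle, mitochondrial, proteasome, erythroid and granule genes in each file at 5 h, red circles for files labelled Nat10-/- (upper of each pair) and blue squares for WT. All genes shown other than Slc4a1 lie higher in the files labelled Nat10-/-, for example Npm1 at 1761 and 1735 against 601 and 573.

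Erythroid markers were higher in the libraries labelled Nat10-/-, with 16 of 21 higher and 3 lower, beside 32.6% and 31.1% of all genes tested. The markers had a median log2 fold change of 1.54 and a summed level of 24160 and 24110 normalised CPM against 7105 and 7055 in WT. Car2, a carbonic anhydrase gene, stood at 10120 and 10120 in the libraries labelled Nat10-/-, against 3208 and 3150 in WT (log2 1.67 ± 0.019), whereas at 0 h the libraries did not differ past the threshold, at 3211 and 3211 against 3225 and 3206. Its relative Car1 stood at 6284 and 6241 against 1559 and 1580 at 5 h. Rhd, the Rhesus antigen gene, stood at 1170 and 1154 in the libraries labelled Nat10-/-, against 238 and 248 in WT, and the water channel gene Aqp1 at 2161 and 2142 against 543 and 525. Slc4a1, the anion exchanger of mature red cells, was lower, at 11.3 and 12.3 against 67.3 and 78.2. Their part in the growth gene lists was not tested.

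Among granule genes of the myeloid lineages, Epx, the eosinophil peroxidase, differed by less at 5 h than at 0 h. It stood at 1718 and 1726 normalised CPM in the libraries labelled Nat10-/-, against 736 and 692 in WT at 5 h (log2 1.27 ± 0.028), and at 332 and 331 against 42.4 and 41.6 at 0 h (log2 2.98 ± 0.040). Prg2, the major basic protein of eosinophils, stood at 5506 and 5554 in the libraries labelled Nat10-/-, against 4703 and 4803 in WT. Yet of 16 eosinophil markers only 4 were higher and 10 lower, beside 32.6% higher and 31.1% lower among all genes tested. Among the lower markers was the cytokine receptor gene Il13ra1 (log2 -5.28). Of 22 mast cell and basophil markers, 12 were higher and 8 lower. The share higher, 54.55%, was near the 55.6% of protein-coding genes of at least 20 normalised CPM. The protease gene Mcpt8 was higher, at 400.3 and 388 in the libraries labelled Nat10-/- against 123 and 138 in WT, as was Prss34 (log2 1.20), while Srgn, the granule proteoglycan serglycin, had -0.73. Of 24 neutrophil and monocyte markers, 5 were higher and 12 lower. Mpo, the myeloperoxidase gene, stood at 11130 and 11160 in the libraries labelled Nat10-/-, against 9015 and 8912 in WT, and the elastase gene Elane had a log2 fold change of 0.36. Ly6c2, a monocyte and plasma cell surface gene with near-identical relatives, stood at 520 and 535 against 2796 and 2793, and the secondary granule gene Ngp at 0.804 and 1.10 against 128 and 132. Megakaryocyte markers were split, with 7 higher and 7 lower of 19 (36.8% each), near the shares of all genes tested. Itga2b, the gene of CD41, had a log2 fold change of 1.73 and Vwf, the von Willebrand factor gene, one of -1.18.

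**Figure D4:**
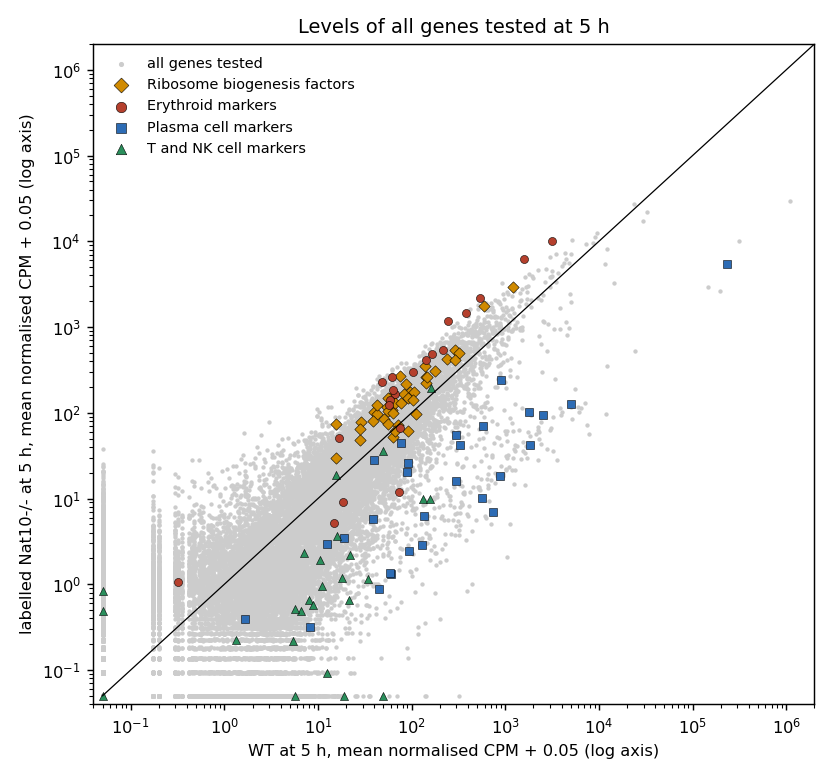
Mean normalised CPM plus 0.05 of each gene tested in the libraries labelled Nat10-/- (vertical) and in WT (horizontal) at 5 h, both on log axes, with 4 gene lists marked and the line of equal levels drawn. Plasma cell markers lie below the line (28 of 28 lower), T and NK cell markers mostly so (21 of 26), and ribosome biogenesis (37 of 42 higher) and erythroid genes (16 of 21 higher) mostly above it.

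The largest differences of single genes, among protein-coding genes of at least 20 normalised CPM with counts in every library, ran in both directions. Lowest relative to WT was Alpl, an alkaline phosphatase gene, at 0.0893 and 0.169 normalised CPM in the libraries labelled Nat10-/- against 93.8 and 82.7 in WT (log2 -9.28). The former values rest on 1 and 2 raw counts, so the size of this fold change is uncertain. At 0 h Alpl was higher in the libraries labelled Nat10-/- by 1.54 ± 0.24. Others among the lowest were the inhibitory myeloid receptor gene Cd300lf (log2 -7.72), the T and NK cell checkpoint gene Tigit (log2 -7.15) and Slamf6, a lymphocyte receptor gene (log2 -7.05). In the libraries labelled Nat10-/- these rest on 1 and 1, 5 and 3, and 10 and 3 raw counts. The sizes of their fold changes are therefore also uncertain. Highest relative to WT was Mnd1, a meiotic recombination gene, at 27.1 and 29.2 in the libraries labelled Nat10-/- against 0.491 and 0.302 in WT (log2 6.07). Its WT values rest on 2 and 1 raw counts, so the size of this fold change is uncertain too. Galnt10, a glycosyltransferase that starts mucin-type O-glycans, stood at 57.5 and 59.0 against 2.21 and 0.906, while at 0 h it did not pass the threshold, at 24.2 and 25.4 in the libraries labelled Nat10-/- against 28.3 and 26.6 in WT. The tetraspanin gene Tspan8 (log2 4.79), the GTPase-activating gene Arap3 (log2 4.47) and the DNA demethylase gene Tet3 (log2 4.26) followed. The WT values of Galnt10, Tspan8, Arap3 and Tet3 at 5 h rest on at most 12 raw counts per library.

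Genes with 0 counts in one genotype were found on both sides. At a mean of at least 20 normalised CPM in the other group, 8 genes had 0 counts in both WT libraries and 13 had 0 counts in both libraries labelled Nat10-/-. With the WT group held at 3 counts, Atp4a, the gastric proton pump gene, was at least 92.8-fold higher in the libraries labelled Nat10-/-, at 39.03 and 36.43 normalised CPM. Cep135, a centriole gene, was at least 59.0-fold higher, and Siglecf, an eosinophil receptor, and Treml1, a platelet receptor, were at least 51.8-fold and 51.6-fold higher. Fasl, the ligand of the death receptor, was at least 266-fold lower with the group labelled Nat10-/- held at 3 counts, at 30.7 and 39.5 normalised CPM in WT, and Gpr55, a lipid receptor gene, at least 234-fold lower.

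Compared with the difference at 0 h, that at 5 h lay higher for 6520 genes (26%) and lower for 6983 (27.8%) by the interaction test. Of the 7802 genes lower at 5 h, 2622 had been higher at 0 h and 2330 lower. Of the 8186 genes higher at 5 h, 3854 had been higher at 0 h and 1593 lower. Il7r, the interleukin-7 receptor of lymphoid progenitors, stood at 2.23 and 2.87 normalised CPM in the libraries labelled Nat10-/-, against 80.8 and 77.0 in WT at 5 h, and at 11.7 and 13.2 against 0.509 and 1.04 at 0 h. Lymphoid, plasma cell and ER lists were those whose medians stood above 0 at 0 h and furthest below 0 at 5 h. Growth lists stood above 0 at both times, with S phase at 1.09 at 5 h and 0.68 at 0 h and fatty acid oxidation at 0.92 and 0.27. The HSC list stood below 0 at both.

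**Figure D5:**
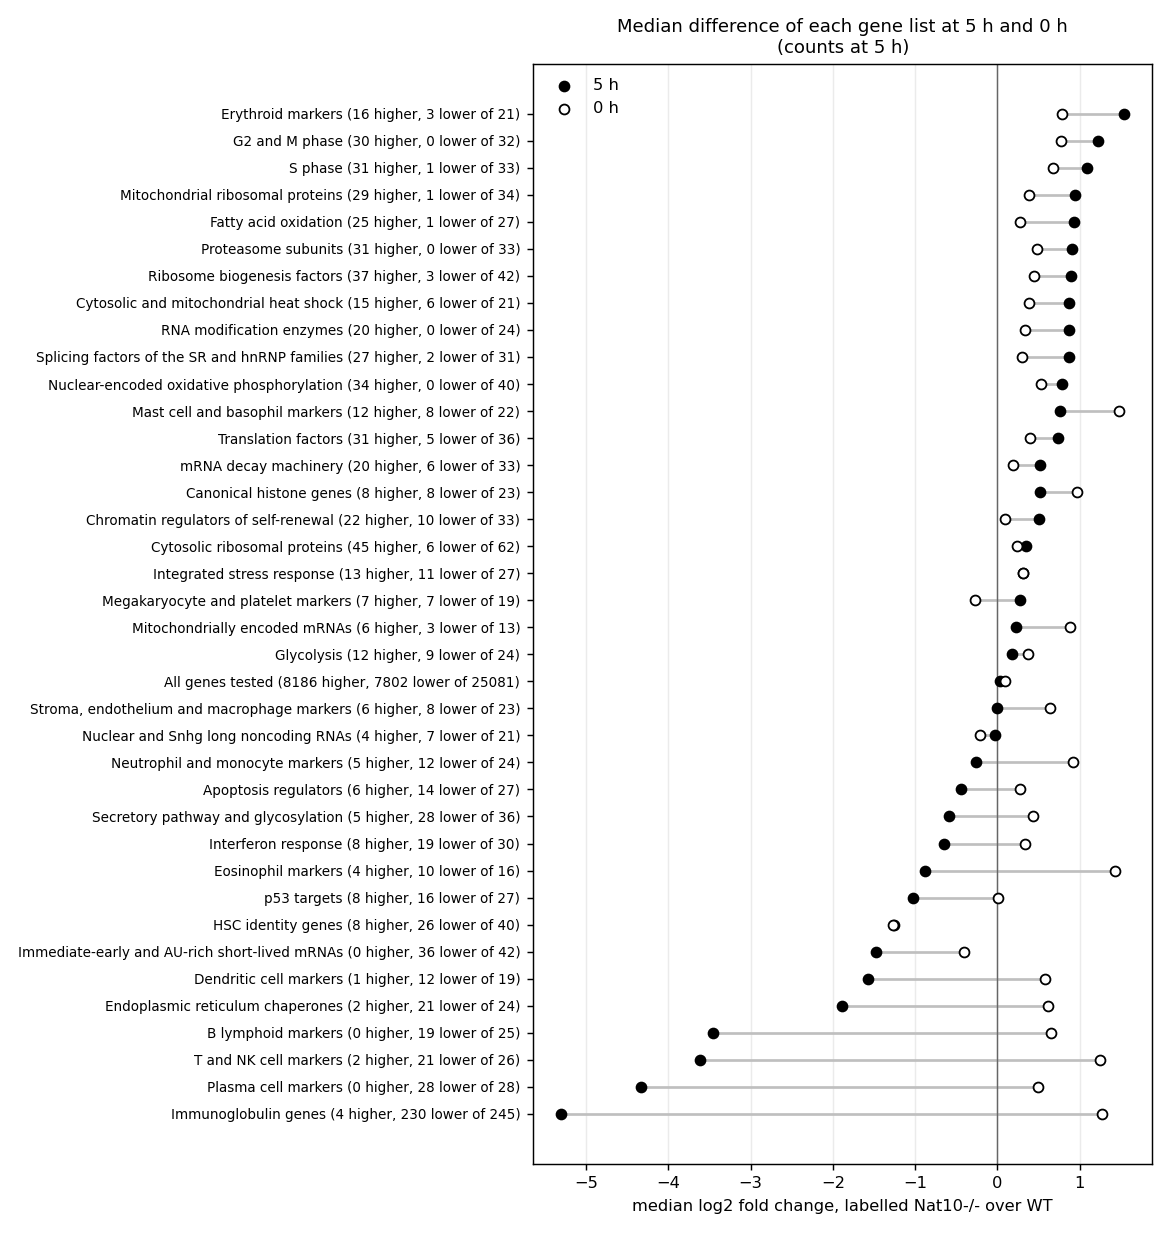
Median log2 fold change, libraries labelled Nat10-/- over WT, of each gene list at 5 h (filled) and 0 h (open), with the number of members higher and lower at 5 h beside each name. Immunoglobulin (-5.31), plasma cell (-4.33), T and NK cell (-3.62), B lymphoid (-3.46) and ER chaperone (-1.89) medians are far below 0 at 5 h and above 0 at 0 h, while erythroid, cell cycle, proteasome and ribosome biogenesis medians are above 0 at both times.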

How the data were processed

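Polyadenylated RNA was sequenced in 16 mouse libraries, and the 4 at 5 h and 4 at 0 h are reported. The authors deposited raw counts. Per the file headers, featureCounts 1.6.3 counted fragments over Ensembl exons (GRCm39) and ignored strand. The submitters' processing notes name STAR and DESeq2. The exonic length that the authors deposited, a different kind of value, only described genes. ERCC entries (92 of 55506) were removed. Symbols and classes came from a GENCODE table by gene identifier (52081 matched, 94.0%). Because counting ignored strand, antisense and overlapping genes cannot be told apart.

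Groups came from the labels. Genes kept by filterByExpr (25081) were fitted with edgeR 4.0.16 in R 4.3.3 (quasi-likelihood F test on all 16 libraries, 1 mean per group), with offsets of non-immunoglobulin gene counts times TMM factors, Benjamini-Hochberg adjustment over all genes and a threshold of 0.05. Contrasts were 5 h, 0 h, their interaction, and 5 h with ERCC totals as offsets. Standard errors are the absolute log2 fold change over the square root of F. They can fall below counting error where a group holds few counts. The median biological coefficient of variation was 0.135. Bounds hold a group at 0 at 3 counts, or 0.130 normalised CPM for the group labelled Nat10-/- and 0.406 for WT. Without molecular identifiers, intervals and bounds cover counting error only. Alternatives were DESeq2 1.42.0, 3 other scales, no filter, only the libraries of the times compared, a replicate block, summed files with a straight line over hours, and leaving out each library.

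The gene lists and the genes named were chosen with earlier results of these data known. Genes named are the 12 largest differences each way among protein-coding genes of at least 20 normalised CPM, up to 6 a side with a group at 0, up to 6 per list by level and size of difference, the 10 highest per group, Nat10 and 6 each way by the interaction; the text gives a selection, and some genes are not reported here. Sdc1, Prdm1, Irf4, Ms4a1, Hspa5, Creld2, Pdia6, Fos, Procr, Slamf1, Hlf, Cd34 and Fbl are exceptions chosen after their values were seen.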

Additional observations from a re-analysis of the deposited data

Results flagged for a closer look

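The difference between the libraries labelled Nat10-/- and WT changed between 0 h and 5 h for 6520 genes upward and 6983 downward in the edgeR interaction test, and the genes below are those whose values at both times are given above. On the log2 scale, the 5 h difference minus the 0 h difference was -6.47 for Jchain and -6.40 for Sdc1 among plasma cell genes. It was -6.43 for Cd79a, -8.36 for Fcmr, -8.95 for Il7r and -6.54 for Il2rb among lymphoid genes. For the ER chaperone genes Hsp90b1 and Hspa5 it was -3.16 and -1.92. Immediate-early genes gave -1.49 for Jun, -2.81 for Fosb and -1.33 for Fos. Of the HSC identity genes, Ly6a gave -5.54, Hlf -1.72 and Procr -1.02, while Kit gave 1.00 and Cd34 1.61. Nat10 gave 1.56, Car2 1.67, Galnt10 5.30, Epx -1.71 and Alpl -10.8. Each passed the threshold of 0.05 with the 2 files of a group taken as separate samples.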

How the results depend on the processing

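Scaled to all gene counts without TMM factors, 13929 genes were higher and 3733 lower in the libraries labelled Nat10-/- than in WT at 5 h, while 12352 lay above and 3170 below their 0 h difference. On that scale the medians of HSC identity genes (0.11), p53 targets (0.28), interferon response (0.72), apoptosis regulators (0.89), the secretory pathway (0.78) and eosinophil markers (0.48) turned positive, as did the log2 fold changes of Pdia3 (1.28), Pdia6 (0.28), Rpn2 (1.08), Ddost (0.81), Jun (0.11), Bst2 (0.30), Atf4 (0.52), Pkm (0.74), Srgn (0.64), Vwf (0.19) and mt-Co1 (0.80). Each of these list medians lay below the median of all genes on that scale, 1.38. Of the 133 genes named, 121 kept their direction and side of the threshold on that scale. Pdia3 was also positive without the filter (0.020), with only the libraries of the times compared (0.054) and with summed files and the straight line (0.090), and Rplp0 was negative on non-immunoglobulin counts without TMM factors (-0.023). With the files of each group summed and, at the same time, a straight line over the hours in place of group means, the 4 counts at 5 h and against 0 h were 0, 0, 0 and 0, with 3953 and 1804 genes at an unadjusted p under 0.05, and the smallest adjusted p was 0.0623 at 5 h. DESeq2 gave 7017 higher and 7337 lower genes. Leaving out 1 library gave 6235 to 7742 higher and 6822 to 7402 lower genes, and 93 to 162 lower per spike-in, while all 133 genes named kept their call. With the replicate block, 8082 genes were higher and 7759 lower, and no named gene changed its call. The deviations of file 1 and file 2 in the 2 genotypes correlated at 0.0309 over 6526 genes. If the 2 files of a group are technical, this value cannot show whether the replicate numbers pair the libraries. The excess of 2820 detected genes in the libraries labelled Nat10-/- over WT became -2437 at a minimum of 5 counts. The depth of the WT libraries outside immunoglobulin genes, 4548746 and 3702177 counts against 13855318 and 14719308 in the libraries labelled Nat10-/-, limits what can be said of low genes there.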
